A study of Mus musculus with 6 samples.

Results

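The genes described here are a chosen set from the endothelin system. They are the ligands Edn1 and Edn2, the receptors Ednra and Ednrb, and the endothelin converting enzyme Ece1. They were taken by gene symbol and made up 5 of the 22295 genes listed. All 5 had counts, as did 21681 genes of the whole table. The set was drawn up with the difference between genotypes already known, so the differences between KO and WT for these 5 genes are given as a description. No p-value is printed for them, and where it is said which of them the fit over all genes called, nothing is read from the call.

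Keratinocytes that carried GFP were sorted from the epidermis of mice of the K19 Itga3 KO and WT genotypes, and their RNA was sequenced with 3 libraries per genotype and 1 mouse per library. Itga3 encodes the integrin subunit α3, a laminin receptor of basal keratinocytes, and the comparison asked how its loss from cells of the hair bulge (HB) changes their RNA early in skin carcinogenesis. Both genotypes were on the FVB strain and carried K19(Cre-ERT), a tamoxifen-inducible Cre driven by the K19 promoter, and mTmG, a reporter that turns a cell green after Cre has acted. KO mice also carried floxed Itga3 alleles (Itga3 fl/fl), which WT mice lacked. Per the labels, mice of both genotypes were given tamoxifen at 10 mg/ml over 4 days at 6 weeks of age, although the study's methods describe another dose and route. At 7 weeks they received 1 dose of 30 µg of the carcinogen DMBA in 200 µl of acetone, followed by bi-weekly applications of 12.34 µg of the tumor promoter TPA. The study's methods give 4 TPA doses for this short-term treatment, and the study places it before tumors had formed. No untreated group was analysed here, so the controls share the Cre, the reporter, the tamoxifen and the DMBA/TPA treatment, and the data cover cells in which the K19 promoter had activated Cre.

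Endothelins are short secreted peptides that are cut from longer precursors by the membrane protease ECE1. They act on neighboring cells through 2 G protein-coupled receptors, of which the endothelin A receptor (Ednra) binds endothelin-1 and endothelin-2 strongly and the endothelin B receptor (Ednrb) binds every endothelin. In skin, endothelins released by keratinocytes are known as signals to melanocytes, which carry the B receptor, and the A receptor is best known from smooth muscle and mesenchymal cells.

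The libraries held 20578309 to 23670507 counted reads. Itga3 had 252 to 371 counts per 1000000 counted reads (CPM, scaled by the TMM factors of edgeR) in the WT libraries and 124 to 134 CPM in the KO libraries. Its log2 fold change was −1.20 (SE 0.13, adjusted p = 0.00283, edgeR quasi-likelihood test), so the targeted gene was lower in each KO library and was still counted there. The call was lost without WT c (−1.27, adjusted p = 0.130) or KO a (−1.21, adjusted p = 0.0934), with the sign kept. The 9 markers of HB and basal keratinocytes each had more than 3 counts in every library, with summed levels of 31353 to 48093 CPM in WT and 36498 to 42474 CPM in KO. Krt5, a basal keratin, was the highest of them. Cd34, a HB stem cell marker, was lower in KO (log2 fold change −0.72, SE 0.14, adjusted p = 0.0462), and Krt19 itself was low, at 3.32 CPM in WT and 2.73 CPM in KO. The Cd34 call was lost without WT b, WT c, KO a or KO c (adjusted p up to 0.379) and with limma-voom or a filter on low counts, at log2 fold changes of −0.57 to −0.87 over the 6 omissions. Lgr5, another HB marker, was at 586 CPM in WT and 424 CPM in KO (log2 fold change −0.47, SE 0.17, edgeR adjusted p = 0.283). Of the 9 markers, 3 had a higher and 6 a lower mean in KO. The genotypes therefore did not differ in whether keratinocyte markers were present, and Cd34 was the one of them that was called.

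The 2 ligand genes are close relatives, and the stretch that codes for the mature peptide is printed here to show how far the counted reads could tell them apart. It spans 63 bases, or 21 codons, in exon 2 of 5 in each gene, and lies on the plus strand of GRCm38 at chr13:42303649-42303711 for Edn1 and chr4:120161951-120162013 for Edn2. The sequences come from the GENCODE transcripts of that build, and capitals mark the bases at which the 2 genes differ.

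Edn1: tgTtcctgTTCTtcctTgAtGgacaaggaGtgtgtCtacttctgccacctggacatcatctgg

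Edn2: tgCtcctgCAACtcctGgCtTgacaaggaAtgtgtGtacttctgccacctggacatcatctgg

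The stretches differed at 10 of 63 bases and in 7 of 21 codons, and were 84.1% the same. The longest run they shared was 27 bases, at the end of the peptide. Over the whole annotated transcripts, of 2139 bases for Edn1 and 1462 bases for Edn2, the longest identical run was 29 bases, shorter than the 65-base reads. A read of full length within these transcripts therefore met bases that separate Edn1 from Edn2, and the counts of the 2 ligands below are counts of different genes.

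Edn2, the gene for endothelin-2, was the main ligand RNA and the member that was higher in KO. It lies on chromosome 4 at 120161206 to 120167360, plus strand, with 5 exons. It had 229, 305 and 246 counts in the WT libraries (named a, b and c) and 688, 523 and 716 counts in the KO libraries. These are 10.5, 14.0 and 10.8 CPM in WT (mean 11.8 ± 1.91 SD, n = 3) and 29.2, 24.5 and 34.6 CPM in KO (29.5 ± 5.05, n = 3). The lowest KO library stood above the highest WT library. The log2 fold change was 1.32 (SE 0.16, 95% interval 0.97 to 1.67), or 2.50-fold higher in KO, and without any 1 library it stayed between 1.19 and 1.46.

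Edn1, the gene for endothelin-1, did not share this difference. It lies on chromosome 13 at 42301270 to 42307989, plus strand, and had 67, 103 and 58 counts in WT and 69, 66 and 84 counts in KO. The levels were 3.07, 4.72 and 2.56 CPM in WT (3.45 ± 1.13, n = 3) and 2.93, 3.10 and 4.06 CPM in KO (3.36 ± 0.611, n = 3). The KO libraries lay within the range of the WT libraries. The log2 fold change was −0.04 (SE 0.26), with a 95% interval of −0.61 to 0.54, and a difference inside that interval could not be told from 0 at this depth. Its sign turned to 0.25 without WT b, the WT library with the most Edn1.

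Levels of different genes were compared per length, as CPM divided by the exon length in kilobases (RPKM). Edn2 stood at 8.05 ± 1.31 RPKM in WT and 20.2 ± 3.46 RPKM in KO (SD, n = 3 each). The 2 ligands together came to 9.67 ± 1.81 RPKM in WT and 21.7 ± 3.69 RPKM in KO. Edn2 made up 83.3, 81.2 and 86.1% of this ligand RNA in the WT libraries and 93.6, 92.1 and 92.6% in the KO libraries. Ligand RNA was thus mostly Edn2 in both genotypes, and the lowest Edn2 share among KO libraries lay above the highest share among WT libraries. The RPKM ratio of Edn2 to Edn1 was 5.18 ± 0.949 in WT and 12.9 ± 1.54 in KO. Within a genotype both ligands were highest in the same library, WT b and KO c. Edn3, the gene for the remaining endothelin, was not among the listed genes, so the share covers Edn1 and Edn2 alone. The share also carries the Edn2 difference on which the genes were chosen.

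**Figure D1:**
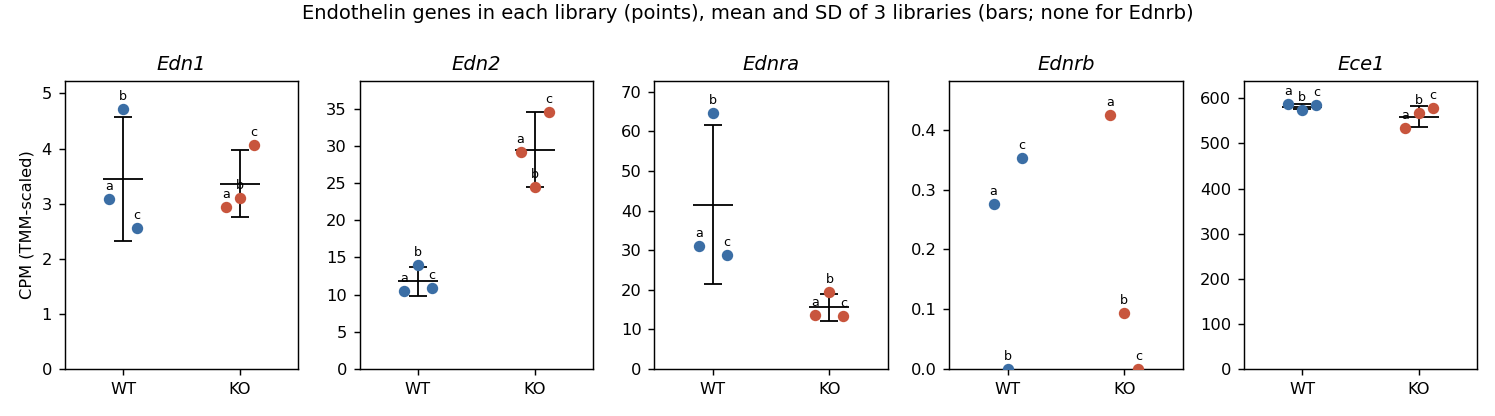
Level of each endothelin gene (vertical axis, CPM scaled by TMM factors, a separate linear axis from 0 for each gene) in the WT libraries (blue) and KO libraries (red), with letters naming the libraries and bars giving the mean and SD of 3 libraries (no bars for Ednrb). The 3 KO libraries stand above the 3 WT libraries for Edn2 (24.5 to 34.6 against 10.5 to 14.0 CPM) and below them for Ednra (13.4 to 19.4 against 28.8 to 64.7 CPM), while the genotypes overlap for Edn1, Ednrb and Ece1.

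Ednra, the gene for the endothelin A receptor, was the member that was lower in KO. It lies on chromosome 8 at 77663031 to 77724464, minus strand, with 8 exons. It had 653 to 1413 counts in the WT libraries and at most 414 counts in a KO library. The levels were 31.1, 64.7 and 28.8 CPM in WT (41.5 ± 20.1, n = 3) and 13.7, 19.4 and 13.4 CPM in KO (15.5 ± 3.37, n = 3). The groups did not overlap, but WT b held more Ednra RNA than any other library and made the WT spread wide. The log2 fold change was −1.42 (SE 0.27, 95% interval −2.02 to −0.82), with the mean level 2.67-fold higher in WT. Without WT b it was −0.95, so the size of the difference depended on this library, while its direction did not.

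The Ednra locus also holds another annotated transcript that overlaps it, 4933431K23Rik. It had 9 to 21 counts per library, far fewer than Ednra, and its log2 fold change was −0.97 (SE 0.37, adjusted p = 0.319, edgeR). The libraries were strand-specific and the counting took the strand into account. How far Ednra counts were separated from those of this transcript was not tested.

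Ednrb, the gene for the endothelin B receptor, was close to undetected in these sorted keratinocytes. It lies on chromosome 14 at 103814625 to 103844173, minus strand, and had 6, 0 and 8 counts in WT and 10, 2 and 0 counts in KO, 26 in all. A count of 3, the most that a reading of 0 allows, corresponds to 0.128 to 0.145 CPM in these libraries, and the highest Ednrb level was 0.425 CPM. These counts are too few for a fold change, and no difference between genotypes was detectable. The floor covers counting error only.

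Ece1, the gene for the converting enzyme of the set, was abundant and nearly level. It lies on chromosome 4 at 137862237 to 137965229, plus strand, with 20 exons. It had 587, 574 and 585 CPM in WT (582 ± 6.51, n = 3) and 534, 567 and 578 CPM in KO (560 ± 22.7, n = 3). The KO libraries reached into the range of the WT libraries. The log2 fold change was −0.06 (SE 0.09), and its 95% interval of −0.25 to 0.14 left room for small changes alone.

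By the adjusted p under 0.05 of the edgeR quasi-likelihood test, 2 of the 5 genes were called, Edn2 as higher and Ednra as lower in KO. Over all 21681 genes 0.673% were called, 0.461% as higher and 0.212% as lower, 16.3% had libraries that did not overlap between genotypes, and 8.03% had KO libraries that stood above the WT libraries. Since the members were chosen on this contrast, nothing is read from that count. The Ednra call was lost with 5 of the 7 other ways of scaling, testing or filtering, and the Edn2 call with 2 of them, each time with the same sign. Both calls were also lost when WT c or KO a was left out, and the Ednra call without KO c.

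**Figure D2:**
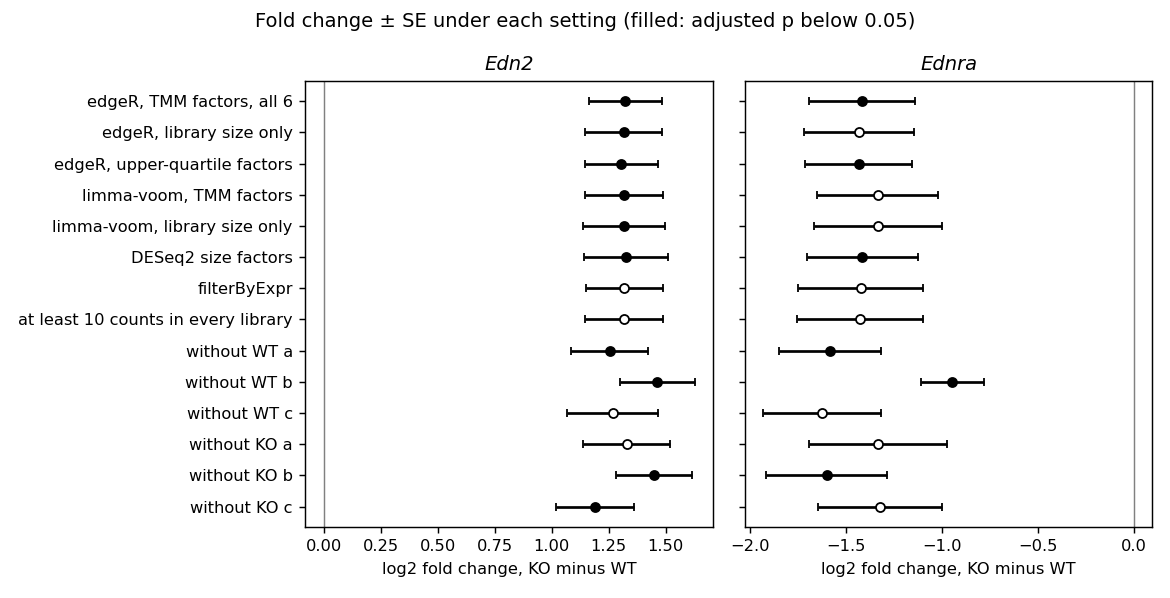
Log2 fold change of Edn2 (left) and Ednra (right), KO minus WT, on the horizontal axis under each way of processing named on the vertical axis, with bars for the SE and filled symbols for an adjusted p under 0.05 (open symbols for one above it). Edn2 stays between 1.19 and 1.46 and Ednra between −1.62 and −0.95 over the fits that leave out 1 library, with the smallest Ednra difference in the fit without WT b.

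Ranked by level per length over the 6 libraries, the genes ran from Ece1 through Edn2, Ednra and Edn1 to Ednrb. Ece1 averaged 108 RPKM, higher than 98.4% of all genes, and Edn2 averaged 14.1 RPKM, higher than 82.6% of genes. Ednra averaged 5.21 RPKM and Edn1 1.59 RPKM. Ece1 was therefore far above both ligands, and the ligand Edn2 was nearer to the receptor Ednra than to the other ligand.

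Neighbors in this order were compared within each library by an exact two-sided sign-flip test on log2(RPKM + 0.1), with p-values adjusted over 4 pairs. A pair with the same sign in 6 of 6 libraries has the smallest p this test can give. The order came from the same 6 libraries, so the direction of each mean difference was fixed before the test. Ece1 exceeded Edn2 by 3.08 ± 0.78 (SD, n = 6, adjusted exact p = 0.0417). Ednra exceeded Edn1 by 1.46 ± 0.78 (adjusted exact p = 0.0417), and Edn1 exceeded Ednrb by 3.57 ± 0.73 (adjusted exact p = 0.0417), each in 6 of 6 libraries. For the ligand Edn2 over the receptor Ednra the difference was 1.48 ± 1.50 (adjusted exact p = 0.0625), with WT b turned the other way at −0.30. Each pair that holds Edn2 or Ednra pools 2 genotypes in which these genes differed. Over the libraries, Ece1 over Edn2 ran from 2.20 to 3.93 and Ednra over Edn1 from 0.35 to 2.37. No conclusion is drawn from the p of any pair that holds Edn2 or Ednra. With the longest annotated transcript as the length, the difference of Edn2 over Ednra was 0.90 and was positive in 3 of 6 libraries.

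The distance between the 2 genes differed with genotype. The RPKM ratio of Edn2 to Ednra was 1.27, 0.808 and 1.41 in the WT libraries, near parity, and 7.98, 4.73 and 9.65 in the KO libraries. The genotypes did not overlap in this ratio, which combines both of the differences on which the genes were chosen.

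**Figure D3:**
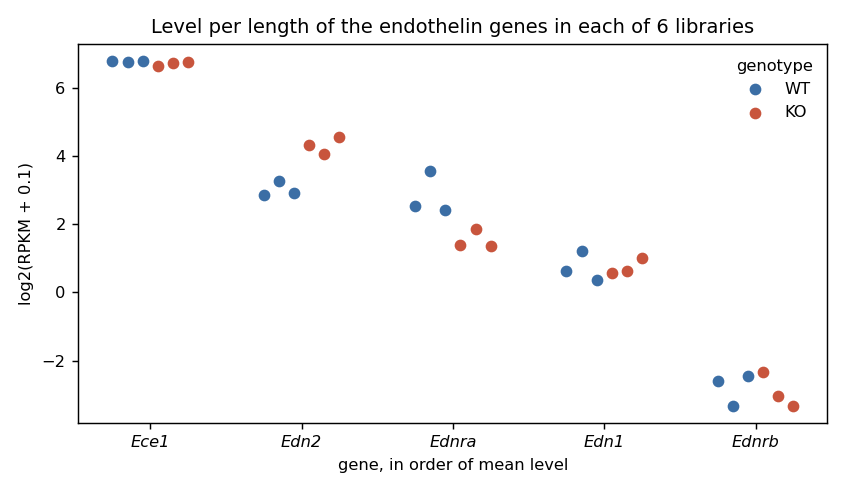
Level per length of the endothelin genes (vertical axis, log2 of RPKM + 0.1) in each of 6 libraries (points, blue for WT and red for KO), with genes ordered by mean level on the horizontal axis. Ece1 lies highest and Ednrb lowest in each library, and Edn2 and Ednra, which are mixed in WT, stand apart in KO.

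Genes around the pathway were examined as 5 lists with 91 tested genes, and none passed an adjusted p of 0.05 in the edgeR quasi-likelihood test. At an unadjusted p under 0.05 there were 13 of 91, and 2503 of 21681 over all genes. DESeq2 called 2, Rgs2 (adjusted p = 0.00142) and Fgf2 (adjusted p = 0.0223). Leaving out WT a gave 7 calls, and leaving out KO b gave 1.

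Of 11 tested genes that process or break down endothelins, 6 had a higher and 5 a lower mean in KO, with a median log2 fold change of 0.01. This tally included genes near 0 counts. With a filter on low counts (filterByExpr), 8 were tested, 3 higher and 5 lower, with a median of −0.01. Mme, which encodes the endothelin-degrading protease neprilysin, had a log2 fold change of 0.55 (SE 0.20, edgeR adjusted p = 0.289). Furin, which encodes the protease that trims endothelin precursors before ECE1 acts, stood at 232 CPM in WT and 230 CPM in KO. Ece2, another converting enzyme gene, stood at 7.57 CPM in WT and 8.21 CPM in KO (log2 fold change 0.12, SE 0.16). Ctsa, which encodes the protease cathepsin A, was at −0.07 (SE 0.09), and Ecel1, a relative of Ece1, had too few counts for a fold change. Furin was thus abundant and near equal between genotypes, as Ece1 was.

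Among 34 tested genes of receptor coupling (G protein subunits, phospholipase C, calcium channels, RGS proteins and other partners), 18 had a higher and 16 a lower mean in KO, with a median of 0.02. Rgs2, an inhibitor of Gq signaling downstream of endothelin receptors, had 16.0, 9.21 and 15.5 CPM in WT and 42.0, 22.1 and 26.7 CPM in KO. Its groups did not overlap, and its log2 fold change of 1.16 (SE 0.25) missed the threshold (edgeR adjusted p = 0.0643). Itpr2, an intracellular calcium channel that opens after Gq signaling, was at −0.42 (SE 0.13, adjusted p = 0.211).

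Among 21 tested regulators of endothelin transcription, 16 had a higher and 5 a lower mean in KO, with a median of 0.12. Junb, an AP-1 subunit, had a log2 fold change of 0.41 (SE 0.14, edgeR adjusted p = 0.259), and Wwtr1, the coactivator TAZ, one of 0.33 (SE 0.11, adjusted p = 0.211). Hif1a, the oxygen-regulated subunit of HIF-1, was at 0.38 (SE 0.16, adjusted p = 0.396). Nfib, a transcription factor of HB stem cells whose loss is known to raise Edn2, was at −0.08 (SE 0.11, adjusted p = 0.763). Among 12 hypoxia response genes, 4 had a higher and 8 a lower mean, with a median of −0.07, and Bnip3, a mitophagy receptor, was at −0.69 (SE 0.21, adjusted p = 0.200). Egln3, an oxygen-sensing prolyl hydroxylase, was at −0.28 (SE 0.12, adjusted p = 0.416), and Pdk1, a kinase that limits pyruvate oxidation, at −0.26 (SE 0.12, adjusted p = 0.430). Neither the list of regulators nor that of hypoxia response genes held a called gene.

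Among 13 tested genes for other keratinocyte signals to melanocytes, 8 had a higher and 5 a lower mean in KO. Their median of 0.26 was the farthest from 0 of the 5 lists, beside 8.8e-05 over all tested genes. With a filter on low counts (filterByExpr), 10 were tested, 6 higher and 4 lower, with a median of 0.20. Fgf2, a growth factor for melanocytes, had 0.505, 0.321 and 0.309 CPM in WT and 2.00, 0.985 and 1.21 CPM in KO. Its groups did not overlap and its log2 fold change was 1.88 (SE 0.41, edgeR adjusted p = 0.0660). Nrg1, a ligand of ErbB receptors, was at 0.49 (SE 0.18, adjusted p = 0.315). Kitl, which encodes stem cell factor, was at 0.00.

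**Figure D4:**
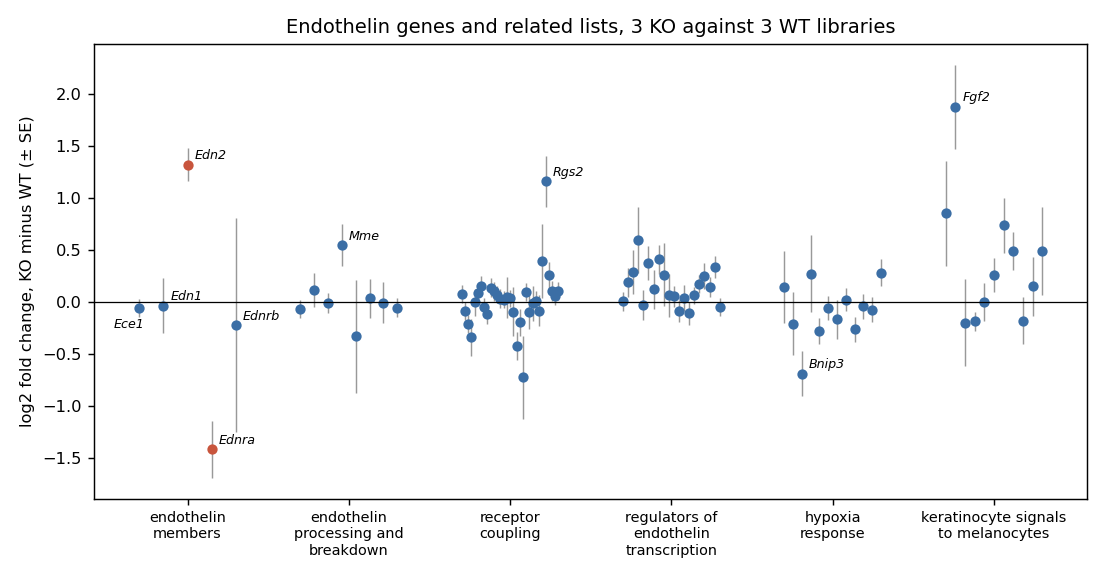
Log2 fold change, KO minus WT, with its SE (vertical axis) for the 5 endothelin genes and for the genes of 5 related lists (horizontal axis), the latter drawn where they had more than 3 counts in every library (82 of 91 genes). Red points passed an adjusted p of 0.05, and the genes of the related lists, from −0.73 to 1.88, held none.

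Because sorted cells can hold RNA from other cell types, markers of the cells that carry endothelin receptors were counted. Melanocyte markers, 10 tested, summed to 65.8 to 82.8 CPM in WT and 43.0 to 50.8 CPM in KO. This difference lay in Mitf, a transcription factor of melanocytes, whose log2 fold change was −0.93 (SE 0.14, edgeR adjusted p = 0.0158), and whose call was lost without WT c, KO a or KO c (adjusted p up to 0.241) and with limma-voom or a filter on low counts, with its sign kept. The other 9 melanocyte markers summed to 8.58 to 17.2 CPM in WT and 13.4 to 14.8 CPM in KO, among them Dct, a melanin synthesis enzyme, at 5.39 CPM in WT and 6.31 CPM in KO. Mitf therefore moved apart from the markers around it.

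Of 9 tested fibroblast and dermal papilla markers, 6 had a higher and 3 a lower mean in KO, and none was called. Their median log2 fold change of 1.84 was taken over a list that included markers near 0 counts. With a filter on low counts (filterByExpr), 4 markers were tested, 1 higher and 3 lower in KO, with a median of −1.19. The 9 markers summed to 116 to 178 CPM in WT and 48.2 to 80.4 CPM in KO. The sum was set by the collagen genes Col1a1 (85.4 CPM in WT and 37.5 CPM in KO, adjusted p = 0.127, edgeR) and Col1a2 (61.9 and 27.3 CPM, adjusted p = 0.0555). The other 7 summed to 1.51 to 3.07 CPM in WT and 2.34 to 6.09 CPM in KO, and Dcn, a matrix proteoglycan, was at 1.03 CPM in WT and 3.70 CPM in KO (log2 fold change 1.84, SE 0.47, adjusted p = 0.113). Pdgfra, a growth factor receptor, was at 1.02 CPM in WT and 0.414 CPM in KO (log2 fold change −1.30, SE 0.41, edgeR adjusted p = 0.203). The defining markers Lum, Corin, Sox2 and Dpt had at most 3 counts in each library. Of the WT libraries, WT b, the highest in Ednra, was the lowest in Col1a1 (40.4 CPM) and the highest in Col1a2 (72.9 CPM) and Pdgfra (1.33 CPM).

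Smooth muscle and pericyte markers, 8 tested, summed to 467 to 535 CPM in WT and 355 to 552 CPM in KO. Cspg4, a membrane proteoglycan, made up most of this, while Des, the muscle filament desmin, had at most 1 count in each library. The other 7 summed to 72.9 to 97.6 CPM in WT and 104 to 137 CPM in KO, mostly from Notch3, a receptor, at 81.3 CPM in WT and 109 CPM in KO (edgeR adjusted p = 0.236). Endothelial markers, 11 tested, summed to 11.9 to 16.8 CPM in WT and 10.4 to 12.9 CPM in KO, with Cdh5, Emcn and Tie1 at 3 counts or fewer in each library and Cldn5 at 0 throughout. Egfl7 had the highest mean over the 6 libraries, at 3.67 CPM in WT and 3.81 CPM in KO, while Tek, the angiopoietin receptor, was at −1.49 (SE 0.33, edgeR adjusted p = 0.0708). Immune markers, 9 tested, summed to 9.57 to 16.1 CPM in WT and 11.1 to 15.6 CPM in KO, with Cd74 the highest (6.82 and 6.87 CPM) and Lyz2 at 2 counts or fewer. The full sums of these 3 lists overlapped between genotypes, and that of smooth muscle and pericytes without Cspg4 did not. In such bulk libraries fewer cells of a type and less RNA per cell cannot be told apart, and the part of other cells in the Ednra and Edn2 differences was not tested.

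**Figure D5:**
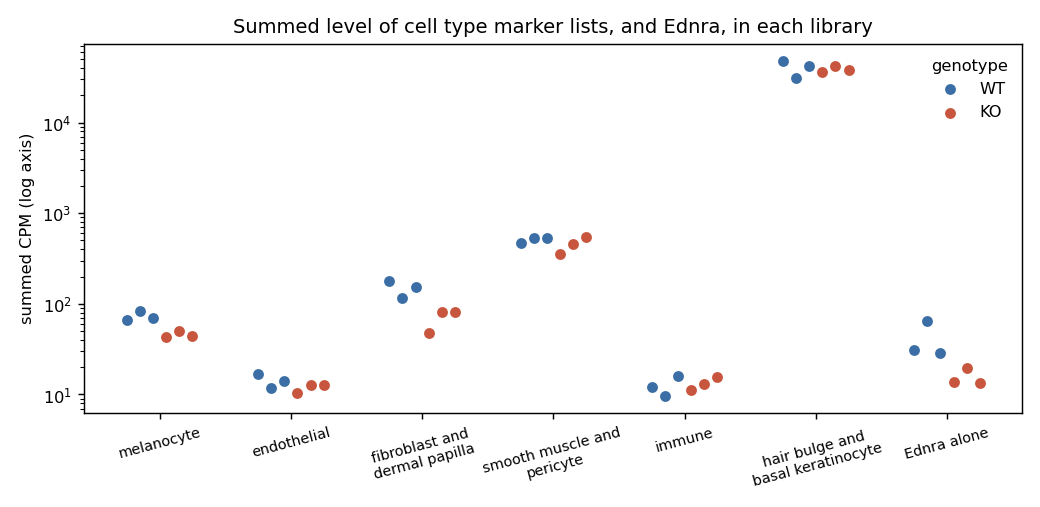
Summed level of each marker list, with Ednra alone at the right (vertical axis, CPM on a log axis), in each WT library (blue) and KO library (red). The fibroblast and melanocyte sums do not overlap between genotypes (116 to 178 against 48.2 to 80.4 CPM, and 65.8 to 82.8 against 43.0 to 50.8 CPM), and the endothelial, smooth muscle, immune and keratinocyte sums do.

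The genes whose pattern over the 6 libraries was most like that of each member were found by Pearson's r of log2(CPM + 0.5) among 8575 genes, with no p, since the libraries are shared and differ in genotype. For Edn2 they were Clip1, a microtubule plus-end protein (r = 0.995), Pitpnm3 (r = 0.993), Sept5, a septin (r = 0.987), Dio2, a thyroid hormone deiodinase (r = 0.986), and Zfp710 (r = 0.984). For Ednra they were Ezh1, a histone methyltransferase (r = 0.998), and Prickle2, a planar polarity protein (r = 0.996). For Edn1, the top gene was Mturn (r = 0.966), followed by Suv420h2 (r = 0.961) and Col4a6 (r = 0.958), and for Ece1 Ubr4 (r = 0.984), Iqce (r = 0.983) and Tln1 (r = 0.979). The top genes for Ednrb were Wdr61 (r = 0.995), Ghitm (r = 0.993) and Rpl8 (r = 0.992), although its counts were near 0. Values of r this high thus came up for a gene near the floor, the best of 8575 over 6 libraries. No shared regulation is read from any of these lists.

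Genes near the members were also examined, within 500 kb on either side. Around Edn2, 1 of 7 tested genes was called. It was Foxo6, a forkhead transcription factor gene 99.7 kb away, at 7.39, 6.23 and 5.56 CPM in WT and 19.3, 14.0 and 26.0 CPM in KO (log2 fold change 1.63, SE 0.21, adjusted p = 0.00764, edgeR). The Foxo6 call was lost without WT c (1.54, adjusted p = 0.288) or KO a (1.64, adjusted p = 0.136) and with limma-voom or a filter on low counts, with its sign kept. The nearest gene, Hivep3, a zinc finger gene, was at 0.10. No gene was called among 4 around Edn1, 6 around Ednra, 4 around Ednrb and 20 around Ece1.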

How the data were processed

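The authors sequenced strand-specific libraries of polyadenylated RNA as single reads of 65 bases, and the submitters' processing notes name TopHat2 2.1.0, Bowtie 1.1 and HTSeq. Per the study's methods, reads were aligned to GRCm38 with Ensembl gene models, and uniquely mapped reads were counted per gene by strand with a script of their own. The authors deposited raw counts for 6 libraries, with totals of 20578309 to 23670507, neither normalized nor pooled. Column names gave the genotype and no sample number, so libraries were named a to c in table order.

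Counts of 21681 genes were fitted together with edgeR 4.0.16 (TMM factors, quasi-likelihood test, Benjamini-Hochberg adjustment over all genes, R 4.3.3). No filter on low counts was applied beyond 1 count in any library. Alternatives were library size or upper-quartile factors, limma-voom (limma 3.58.1), DESeq2 1.42.0, filterByExpr, at least 10 counts in every library, and leaving out each library. The procedure was tested on simulated data. RPKM used exon lengths from GENCODE M21 (21434 genes matched) and member coordinates come from the count table. For Edn1 and Ednrb the gene coordinates in GENCODE M21 differ from those printed, so their lengths may differ from those of the counted gene models.

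The members, gene lists and tests were chosen with earlier results of these data known. Named were the 5 members, Itga3, every called gene of a list or otherwise the 3 with the smallest p, the most abundant and the undetected markers, the genes most alike (mean log2 CPM above 4), and called genes within 500 kb of Edn2. Cd34, Lgr5, Krt19, Ece2, Furin, Nfib, Kitl, Dct, Col1a2, Pdgfra, Tek, Hivep3 and 4933431K23Rik were added after their values were seen. A few genes that these rules name are not reported here.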

Additional observations from a re-analysis of the deposited data

How the results depend on the processing

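The number of genes called over the whole table, 146, depended on the method: 24 with limma-voom and TMM factors, 28 with limma-voom and library size, 546 with DESeq2, 15 with filterByExpr, 12 with a minimum of 10 counts per library, and 5 to 521 with 1 library left out (5 without WT c, 521 without WT a, 10 without KO a, 30 without KO c). The calls for Itga3 were lost without WT c or KO a, with log2 fold changes of −1.31 to −1.01 over the 6 omissions. Edn2 kept its sign throughout and lost its call with filterByExpr (1.32) and with at least 10 counts (1.32), and without WT c or KO a (range 1.19 to 1.46). Ednra kept its sign and lost its call with library size in edgeR (−1.43), limma-voom under both scalings (−1.34 and −1.34), filterByExpr (−1.43) and at least 10 counts (−1.43), and without WT c, KO a or KO c (range −1.62 to −0.95). Neither Edn1 (−0.21 to 0.25 with 1 library left out) nor Ednrb (−2.02 to 0.37) held a direction. Ece1 kept its sign and was called under no alternative. The related lists held 2 calls with DESeq2 and 0 to 7 with 1 library left out. With 5 libraries the smallest exact p is 0.0625, so the differences in level of Ece1 over Edn2 (2.91 to 3.26), Ednra over Edn1 (1.27 to 1.68) and Edn1 over Ednrb (3.38 to 3.72) could not pass. Without lengths, Edn2 made up 77.7% of ligand counts in WT and 89.7% in KO. The cause of these changes was not tested. No paired analysis was possible because the columns carry the genotype and no sample number. With 3 libraries per genotype the spread is known roughly, and the counts of Ednrb and Edn1 were low.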
